A study of Mus musculus with 3 samples.

Results

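Among mouse PC cells profiled by droplet single-cell RNA sequencing, 114 of 14925 kept cells (0.764%, exact binomial 95% interval 0.630% to 0.917%) carried Ly6c1 or Pate14 transcripts, or both, together with the keratin Krt7 and without Krt5. These are called Ly6c1 and Pate14 cells here. A cell belonged to the set if it had at least 2 UMIs (unique molecules counted) of Ly6c1 and Pate14 added together, at least 1 UMI of Krt7, 0 UMIs of Krt5, and at most 1 UMI of the mesenchymal genes Vim, Col5a1, Grem1, Aebp1 and Ccn5 added together. The rule used measured levels, so the values of these 9 genes are given only as a description and are left out of every count below.

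PC cells come from organoids of mouse esophageal epithelium. The mice carried floxed Trp53 alleles on both chromosomes, Trp53, the gene of the tumour suppressor p53, was removed with an adenovirus carrying Cre and EGFP (Ad-Cre-EGFP), and Cdkn2a, a gene of cell cycle inhibitors, was knocked out by CRISPR/Cas9. The dissociated cells grew in DMEM with 10% FBS, constitutively expressed Cas9, received a barcode library by lipofection, and were sorted as living RFP-positive cells after 3 passages. All cells share these changes, there is 1 culture with no replicate, and no unedited cells were analysed here. The labels do not say whether the culture is 1 clone.

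With a single sample there is no test between sets of cells and no p-value. Levels are given as CPM, the UMIs of a gene per 1000000 UMIs summed over a set of cells, with exact Poisson 95% intervals that cover counting error only. The main comparison set held 7428 cells with at least 1 Krt5 UMI and 0 UMIs of Ly6c1 and Pate14. It had no limit on mesenchymal UMIs. Another set held 475 Krt7-positive cells that passed the same Krt7, Krt5 and mesenchymal conditions but had 0 UMIs of Ly6c1 and Pate14. A further set held 370 epithelial cells with at least 2 UMIs of Ltf (lactoferrin, an iron-binding antimicrobial protein) and 0 UMIs of Ly6c1 and Pate14. These cells also had at most 1 UMI of the mesenchymal genes added together. The median Ly6c1 and Pate14 cell had 3828.5 UMIs (range 1214 to 8198) and 2.51% mitochondrial UMIs, against medians of 2924, 2150 and 2792 UMIs and of 2.71%, 2.73% and 4.08% in the Krt5-positive, Krt7-positive and Ltf-positive sets. The comparison sets overlap, because the Ltf-positive set had no Krt5 condition. Of its 370 cells, 318 (85.9%) had a Krt5 UMI and are also in the Krt5-positive set. Ltf-positive cells with Krt7 and without Krt5 are also in the Krt7-positive set. The 3 comparisons also share the Ly6c1 and Pate14 cells and are not independent of each other.

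The Ly6 family encodes small cysteine-rich proteins, most of them anchored to the cell surface by a lipid tail. Ly6c1 is best known from blood vessel lining and subsets of white blood cells, and its relative Ly6a (Sca-1) from progenitor cells. Pate genes encode small proteins with a fold related to that of the Ly6 family and are best known from the male reproductive tract. Krt7 belongs, with Krt8, Krt18 and Krt19, to the keratins of simple and glandular epithelia, whereas the basal layer of the squamous esophagus is marked by Krt5, Krt14 and the transcription factors Trp63 (p63) and Sox2. Chchd10 encodes a small protein of the mitochondrial intermembrane space.

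In GENCODE M21 on GRCm38, Ly6c1 lies at chr15:75044018-75048830 on the minus strand, Krt7 at chr15:101411043-101430313 on the plus strand and Chchd10 at chr10:75933130-75937747 on the plus strand. The identifier of Pate14 carries another name there, A630095E13Rik, at chr9:36635754-36643376 on the minus strand. The RefSeq start of Pate14 used for its promoter lies inside that interval. The 250 bases before the most upstream RefSeq start are printed for the defining genes Ly6c1 and Pate14, and for Isg15, an interferon-stimulated gene whose level was higher in these cells. They are RefSeq sequences of GRCm38.p6, all from the minus strand, at chr15:75048838-75049087, chr9:36638603-36638852 and chr4:156200819-156201068. Capitals mark matches to the TATA box (TATAAA), the interferon-gamma element GAS (TTCNNNGAA) or the interferon-stimulated response element (GAAA, any 2 bases, GAAA), searched on both strands.
Ly6c1: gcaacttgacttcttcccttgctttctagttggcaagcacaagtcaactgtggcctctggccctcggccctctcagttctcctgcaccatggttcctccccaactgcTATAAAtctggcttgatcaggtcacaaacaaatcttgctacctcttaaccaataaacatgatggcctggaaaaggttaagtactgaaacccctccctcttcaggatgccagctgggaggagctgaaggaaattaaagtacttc
Pate14: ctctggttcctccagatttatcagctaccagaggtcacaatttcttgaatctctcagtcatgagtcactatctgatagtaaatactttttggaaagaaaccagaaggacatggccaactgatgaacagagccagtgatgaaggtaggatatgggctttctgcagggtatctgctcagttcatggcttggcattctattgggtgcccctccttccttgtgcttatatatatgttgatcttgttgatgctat
Isg15: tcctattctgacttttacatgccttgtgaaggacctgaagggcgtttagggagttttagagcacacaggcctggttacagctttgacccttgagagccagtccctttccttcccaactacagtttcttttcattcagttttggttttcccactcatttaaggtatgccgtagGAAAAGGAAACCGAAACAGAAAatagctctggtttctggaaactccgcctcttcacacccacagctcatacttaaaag

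The Ly6c1 window held TATAAA 143 bases before the start, the Pate14 window held no match, and the Isg15 window held 3 overlapping matches to the response element, beginning 78, 72 and 66 bases before the start. Over 32851 RefSeq promoter windows of the same length, 12.4% held TATAAA, 7.02% the GAS letters and 2.98% the response element. A match is a description of the letters only.

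Of the 114 cells, 113 had a Ly6c1 UMI, 60 a Pate14 UMI and 59 both. Per cell, Ly6c1 ranged from 0 to 31 UMIs with a median of 4, Pate14 from 0 to 5 with a median of 1, and Krt7 from 1 to 13 with a median of 3. The set is thus defined mainly by Ly6c1, and 54 of its cells showed Ly6c1 without Pate14. Ly6c1 stood at 1215 CPM (1117 to 1320), Pate14 at 229 CPM (188 to 277) and Krt7 at 887 CPM (804 to 977). Krt7 was at 97.2 CPM in Krt5-positive cells, where the rule did not require it.

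Ly6c1 and Pate14 transcripts were not confined to the chosen cells. At least 1 UMI of either was found in 3133 kept cells (21.0%) and at least 2 UMIs in 1102 (7.38%). Of those 1102 cells, 820 also had Krt5, 854 lacked Krt7 and 81 had more than 1 mesenchymal UMI. Cells with at least 5 mesenchymal UMIs, a set of 1221 cells with a median of 3492 UMIs, showed a Ly6c1 UMI in 15.6% and a Pate14 UMI in 0.819%, against 16.7% and 5.90% of all kept cells. All kept cells had a median of 2955 UMIs, so these shares were taken at unlike depths. What the Ly6c1 UMIs outside the set reflect was not tested. Just outside the threshold lay 62 cells that passed all other conditions with 1 UMI of Ly6c1 and Pate14, and just inside it lay 24 cells with exactly 2. Likewise 27 members had exactly 1 Krt7 UMI, and 24 cells missed the set through exactly 1 Krt5 UMI.

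The close copy Ly6c2, which the counting of short 3' reads may not separate well from Ly6c1, had 1 UMI in the set. Ly6a was detected in all 114 cells, with 2 to 77 UMIs and a median of 13. Its level was 3500.0 CPM (3332 to 3674) against 2290.4 CPM in Krt5-positive cells, a ratio of 1.53. Of the other Pate genes on a list of 14, 12 had 0 UMIs in the set and the whole list had 3.

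The cells also lay together when the 9 genes of the rule were left out. In 30 principal components of 2000 variable genes, on average 58.9% (SD 30.2 over 114 cells, median 73.3%) of a member's 15 nearest neighbours were members, against 0.328% for the other cells, while members are 0.764% of kept cells. The spread was wide, with 76 cells at 8 or more member neighbours and 38 below that. In an unsupervised grouping of the same graph into 8 clusters, the smallest cluster, of 224 cells, held 83 members (72.8%), 19 were in cluster 3, and no other cluster held more than 5. That smallest cluster had Ly6c1 at 681 CPM (624 to 743), Pate14 at 139 CPM (114 to 168) and Krt7 at 516 CPM (467 to 570). In the other 7 clusters Ly6c1 was at 8.29 to 129 CPM, Pate14 at 3.26 to 28.7 CPM and Krt7 at 8.15 to 213 CPM. The 83 members, chosen for these genes, carry part of those levels: in the other 141 cells of the cluster Ly6c1 was at 219.8 CPM, Pate14 at 47.6 CPM and Krt7 at 159 CPM, the last within the range of the other clusters. Of these 141 cells, 118 had fewer than 2 UMIs of Ly6c1 and Pate14 and 86 had Krt5. A further 25 cells had at least 8 member neighbours without being members, of which 15 had fewer than 2 UMIs of Ly6c1 and Pate14, 12 had no Krt7 UMI and 3 had Krt5.

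The main comparison asked how these cells differ from Krt5-positive cells. A gene was called higher or lower where the CPM ratio was at least 2, the higher CPM at least 20, and the 95% intervals did not overlap. Of 6909 genes outside the rule that reached 20 CPM in either set, 496 were called higher (7.18%) and 478 lower (6.92%), 14.1% in either direction, and the median log2 ratio of all of them was 0.09. The rule used the same contrast, so nothing is read from these counts beyond a description. Lists of genes with a shared role were compared with this background.

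**Figure D1:**
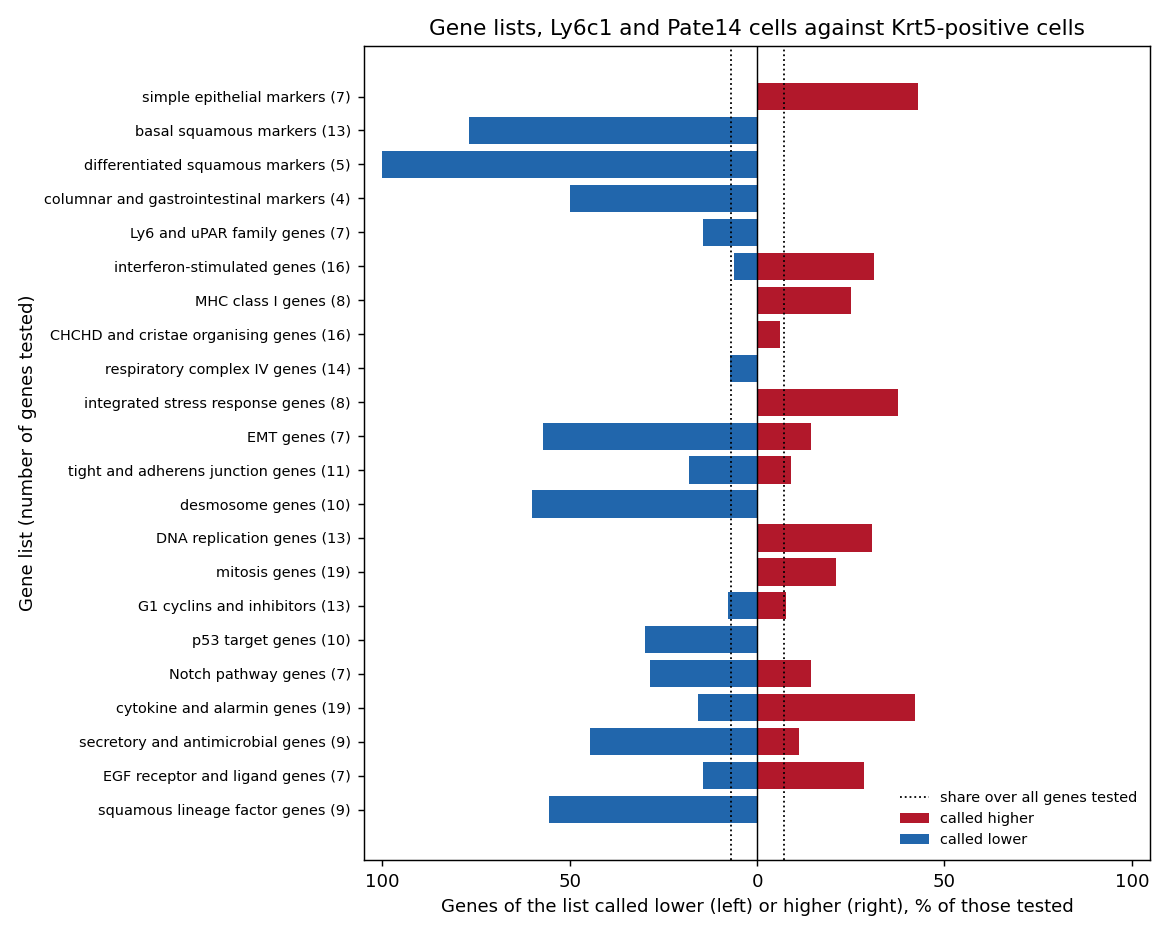
Gene lists in Ly6c1 and Pate14 cells against Krt5-positive cells. The horizontal axis gives the percentage of a list's genes reaching 20 CPM that were called lower (blue, left) or higher (red, right), the number in brackets is how many reached it, and dotted lines mark the shares over all genes, 6.92% and 7.18%. Squamous, desmosome and p53 target lists extend only to the left, and simple epithelial and DNA replication lists only to the right.

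Of 7 simple epithelial markers that reached 20 CPM, 3 were higher, none was lower, and 4 were not called. Krt8 stood at 441.5 CPM (383 to 506) against 132 CPM, 3.34-fold higher, Krt18 at 615 CPM (546 to 691) against 225 CPM, 2.73-fold higher, and the tight junction gene Cldn7 at 148 CPM (115 to 187) against 70.7 CPM, 2.09-fold higher. Krt19 (ratio 1.44), the adhesion gene Epcam (1.70), Cldn4 (1.48) and Cdh1 (0.925) were not called, and Krt20 and Krt23 had 0 UMIs. The median log2 ratio of the 7 markers was 0.77. After thinning every cell to 1500 UMIs, which left out 1 member and 618 Krt5-positive cells, a Krt8 UMI was found in 45.1% of members and 15.8% of Krt5-positive cells (77.2% and 25.6% without thinning). Epcam does not set these cells apart, as it was found in 92.2% of Krt5-positive cells. The label simple epithelial is met in part, since Krt14 was still found in 73 of 114 cells and Krt17 in 110. Of 24 columnar and gastrointestinal markers 4 reached 20 CPM, none was higher and the transcription factors Sox9 and Foxa1 were lower, while 16 had 0 UMIs, among them Gata4, Hnf4a, Cdx1, Cdx2, Muc5ac and Muc6.

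Of 13 basal squamous markers, 10 were lower and none higher. Trp63 stood at 10.7 CPM (3.48 to 25.01) against 161 CPM, 14.99-fold lower, and Col17a1, a collagen of hemidesmosomes, at 23.6 CPM (11.8 to 42.2) against 397 CPM, 16.8-fold lower. Krt14 was 5.91-fold lower (242 against 1432 CPM) and Sox2 5.75-fold lower (12.9 against 74.0 CPM). The integrins Itga6 and Itgb4, the laminin chains Lama3 and Lamb3, and Pax9 were lower as well. The basal keratin Krt17 was not called, at 1192 CPM (1095 to 1295) against 1601 CPM, and neither were Itgb1 and Dst. At 1500 UMIs a Trp63 UMI was found in 1.77% of members and 20.8% of Krt5-positive cells, and Krt14 in 32.7% and 78.4%. Of 9 squamous lineage factors that reached 20 CPM, some of them also on this list, 5 were lower and none higher. Ehf (101 against 263 CPM) was among the lower ones, and Klf4, Klf3, Grhl2 and Tfap2a were not called.

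All 5 differentiated squamous markers that reached 20 CPM were lower. Ly6d, a Ly6 family gene of differentiating squamous cells, showed 45.01 CPM (27.9 to 68.8) against 1289 CPM, 28.6-fold lower. Sprr1a and Sprr1b, cornified envelope precursors, were 16.5-fold and 12.8-fold lower, and Krt6a was 11.8-fold lower. Krt16 had 2 UMIs in the set. Of 10 desmosome genes 6 were lower, including Dsp (57.9 against 290.5 CPM), Dsg3 (8.501-fold lower) and Perp (146 against 558.5 CPM), Dsc3 had 0 UMIs, while Dsg2, Jup, Pkp1 and Pkp2 were not called. Among 11 tight and adherens junction genes, Crb3, an apical polarity gene on chromosome 17, was 3.39-fold higher (244 against 72.0 CPM), Cdh3 and Nectin1 were lower, and 8 were not called.

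**Figure D2:**
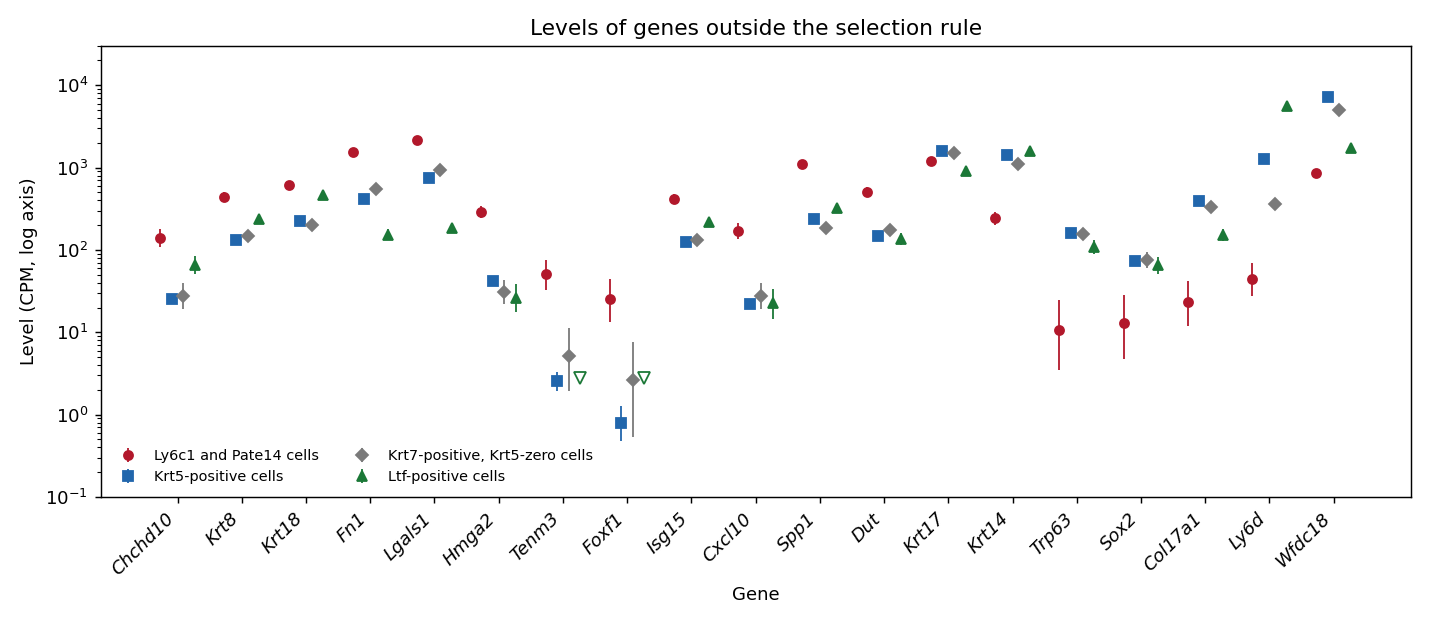
Levels of 19 genes outside the selection rule in the 4 sets of cells. The vertical axis is CPM on a log scale, bars are exact Poisson 95% intervals, and open triangles mark the level of 3 UMIs where a set had 0. Ly6c1 and Pate14 cells (red circles) lie above the other sets for Chchd10, Krt8, Fn1 and Hmga2 and below them for Trp63, Sox2 and Ly6d.

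Chchd10, a marker proposed for these cells from earlier results on the same data and not used by the rule, stood at 141.5 CPM (109 to 180) against 25.5 CPM in Krt5-positive cells, 5.55-fold higher. Per cell it ranged from 0 to 3 UMIs with a median of 0, and 48 of 114 cells (42.1%, 32.9% to 51.7%) had any. At 1500 UMIs the shares were 19.5% of members and 3.70% of Krt5-positive cells. It was the only call among 16 genes of the CHCHD family and of mitochondrial cristae, whose median log2 ratio was 0.27. Of 14 genes of respiratory complex IV, Cox6b1 was lower and 13 were not called.

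Among genes reaching 200 CPM in either set, an addition made after the values were seen, the largest ratios were those of Hmga2, a chromatin protein of embryonic and tumour cells, at 289 CPM (243 to 343) against 42.2 CPM (6.85-fold), Fabp5, a fatty acid carrier (5.20-fold), and Igf2r, a sorting receptor encoded on chromosome 17 (4.88-fold). Spp1, the secreted matrix protein osteopontin, was 4.63-fold higher (1097 against 237 CPM). A Hmga2 UMI was found in 31.9% of members and 4.57% of Krt5-positive cells at 1500 UMIs. In the opposite direction, Wfdc18, a secreted protease inhibitor family gene, was 8.21-fold lower (868 against 7129 CPM). Fxyd3, a regulator of the sodium pump, was 15.5-fold lower (109 against 1693 CPM), Pycard, an inflammasome adaptor, 12.5-fold lower, and Cbr2, a carbonyl reductase, 7.27-fold lower.

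The genes with the largest ratios were expressed at low levels. Several, among them Hdac9, Tenm3 and Foxf1, reached 20 CPM through the Ly6c1 and Pate14 cells alone. Their rank is a description only. The histone deacetylase gene Hdac9 stood at 40.7 CPM (24.5 to 63.6) against 0.756 CPM, and the transmembrane gene Tenm3 at 51.4 CPM (33.0 to 76.5) against 2.58 CPM. Foxf1, a forkhead factor of gut mesenchyme, at chr8:121084386-121088144, had 12 UMIs in the set and 18 in all Krt5-positive cells (25.7 against 0.800 CPM, 32.1-fold). The adjacent noncoding gene Fendrr, at chr8:121054882-121083110 on the other strand, had 10 and 9 UMIs. The cell cycle inhibitor Cdkn1c (14 UMIs, 28.1-fold), Enho (21 UMIs, 38.9-fold), the galactose kinase Galk1 (17 UMIs, 21.6-fold), Ckb, Rspo3, Klf2, Tbc1d9 and the chromosome 17 gene Arhgdig complete the 12 largest. A Foxf1 UMI was seen in 4.42% of members and 0.117% of Krt5-positive cells at 1500 UMIs (8.77% and 0.215% without thinning), so these genes describe the summed cells and not each cell. The 12 largest in the lower direction were Spink5, Ly6d, Vsnl1, Ucp2, Ctnnd2, Sprr2a3, Col17a1, Sprr1a, Mir205hg, Fxyd3, Trp63 and Snai2, of which Spink5, a protease inhibitor of squamous epithelium, had 3 UMIs in the set (51.4-fold lower, 17.6 to 249.5).

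**Figure D3:**
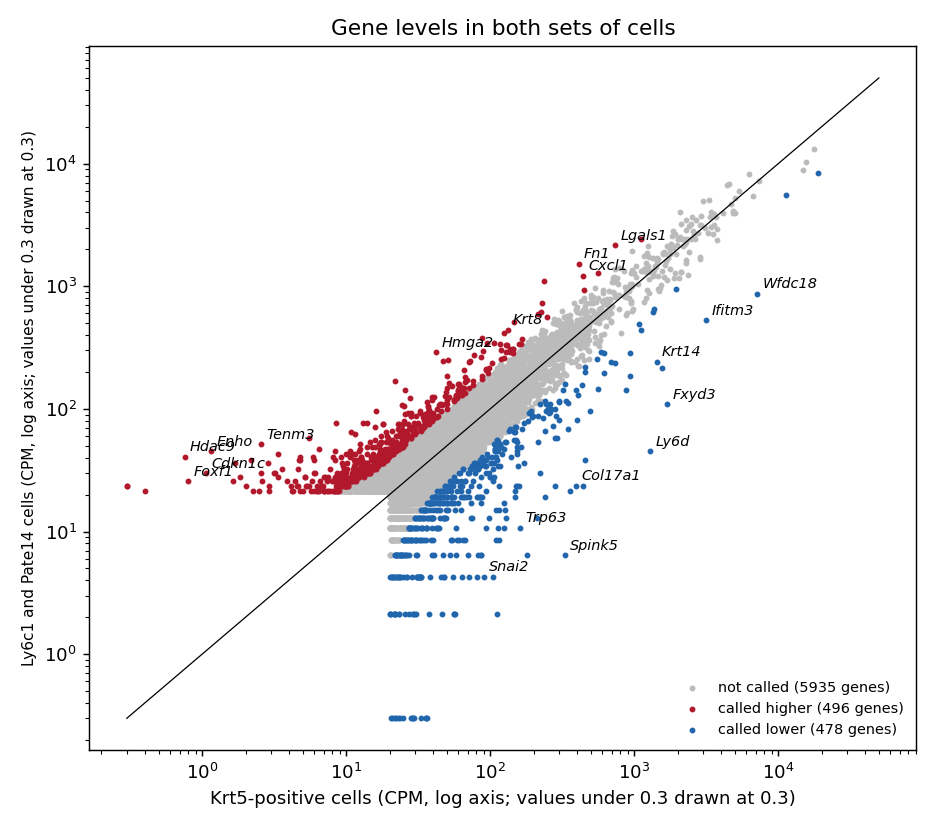
Level of each gene in Ly6c1 and Pate14 cells (vertical) against Krt5-positive cells (horizontal), in CPM on log axes, for the 6909 genes outside the rule that reached 20 CPM in either set. Red points are the 496 genes called higher, blue the 478 called lower, grey the rest, and the line marks equal levels.

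Of 16 interferon-stimulated genes 5 were higher, among them Isg15, whose promoter is printed above (418 against 125 CPM, 3.35-fold), Bst2 (2.79-fold) and Oasl2 (2.68-fold), 10 were not called, and Ifitm3 was 5.96-fold lower (527 against 3142 CPM). The chemokine gene Cxcl10 was 7.76-fold higher, but 13.2% of members had any UMI of it, and over the 76 cells with at least 8 member neighbours its ratio was 1.54 and not called. Of 19 cytokine and alarmin genes 8 were higher, including Cxcl1 (1224 against 438.5 CPM), Il1a (240.0 against 71.6 CPM) and Ccl20 (4.18-fold), and Il33, Ccl7 and Tnf were lower. Csf2, one of the 8, had a ratio of 0.985 among members with at least 3 Krt7 UMIs. Of 8 MHC class I genes H2-M3 and Psmb8 were higher, and 6 were not called, among them H2-K1 (1.70), H2-D1 (1.82) and B2m (1.89). In the integrated stress response, Atf3, Atf5 and Chac1 were higher out of 8, while Atf4 itself was not called (87.9 against 95.2 CPM).

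Of 7 genes of the epithelial to mesenchymal transition that reached 20 CPM, 1 was higher and 4 were lower, with a median log2 ratio of -1.05. The rule limited mesenchymal UMIs in members, while the Krt5-positive set had no such limit. How far the lower levels follow from this was not tested. Against Krt7-positive cells, limited alike, 1 of 7 was higher and 5 were lower. Against Ltf-positive cells, also limited alike, 4 of 6 were higher and 2 lower. In the comparison with Krt5-positive cells fibronectin, Fn1, was 3.72-fold higher (1528 against 411 CPM, with 0 to 25 UMIs per cell and a median of 5.5). Snai2, a transcription factor of this transition and of basal cells (2 UMIs in the set, 21.1-fold lower, 5.83 to 174.2), S100a4 (10.03-fold lower), Tgfbi (0 UMIs) and the smooth muscle actin gene Acta2 were lower. Lgals1, a galectin that is not on this list, stood at 2158 against 738 CPM. The Acta2 ratio was 1.01 over the 38 cells with fewer than 8 member neighbours. Among secretory genes Slpi was 3.25-fold higher, and Wfdc18, Clu, Ltf and the retinaldehyde dehydrogenase gene Aldh1a3 were lower. With Krt5 UMIs allowed in members, Aldh1a3 stood at a ratio of 1.00. The EGF receptor ligand genes Areg (3.73-fold) and Hbegf (2.98-fold) were higher, Nrg1 was lower, and Egfr was not called. Jag1 and Jag2, ligands of Notch, were lower, and the Notch target Nrarp was higher.

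Of 13 DNA replication genes 4 were higher, among them Dut, which removes dUTP from the nucleotide pool (508 against 147 CPM, 3.44-fold), and Pcna (2.03-fold), with a median log2 ratio of 0.86. Of 19 mitosis genes Bub1, Ccnb2, Nusap1 and Aurka were higher, and Top2a (135 against 135 CPM) and Mki67 were not called. Per cell, mitosis genes made up a median of 2.53 UMIs per 10000 in members, with 51 of 114 cells at 0, a 95th percentile of 75.4 and a highest value of 139.9, so the signal was spread unevenly over the cells. Without cells above the 95th percentile of UMIs, Aurka, Nusap1 and Bub1 had ratios of 1.10, 1.20 and 2.06.

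The edited genes and added sequences were checked in the same way. Trp53 was at 38.6 CPM (22.9 to 61.0) against 49.5 CPM, and Notch1, which was not edited in PC cells, at 17.1 CPM (7.402 to 33.8) against 27.6 CPM. Cdkn2a was at 973 CPM (886 to 1067) against 538 CPM, a ratio of 1.81. The labels do not give the deleted parts, so 3' counts do not check the knockouts. Of 10 p53 target genes Mdm2, Phlda3 and Fas were lower and none was higher. The added sequences were lower without reaching the call, GFP at 10322 against 15475 CPM and Scar at 8920.3 against 14923 CPM.

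Because Ly6c1 is also known from vessels and white blood cells, the markers of those cells were read beside it. Of 12 endothelial markers 8 had 0 UMIs in the set, including Cdh5, Kdr, Tek and Tie1. The list summed to 23.6 CPM, from 11 UMIs. This sum was higher than the 13.1, 19.1 and 8.48 CPM of the Krt5-positive, Krt7-positive and Ltf-positive sets. In the set 104 of 114 cells had 0 UMIs of the list, against 7143 of 7428 Krt5-positive cells, at unlike depths. Of 16 immune markers 12 were at 0, including Ptprc and Cd3e, and the list summed to 55.7 CPM, of which Cd14 gave 42.9 CPM, against 57.7, 54.7 and 191 CPM. Of 12 fibroblast markers 9 were at 0, including Col1a2, Dcn and Lum, and the list summed to 17.1 CPM against 74.9, 65.1 and 17.9 CPM. Of 12 neuroendocrine, tuft and ciliated markers 9 were at 0, and the list summed to 25.7 CPM against 53.6, 56.5 and 30.1 CPM. Epcam was found in all 114 cells, with 1 to 34 UMIs and a median of 8.

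The Krt7-positive set met the same Krt7, Krt5 and mesenchymal conditions, but its Krt7 level was lower, with a median of 1 UMI against 3 and 615 against 887 CPM. Here 279 of 7011 genes were called higher (3.98%) and 379 lower (5.41%), 9.39% in either direction, and 226 of the 279 (81.0%) and 289 of the 379 (76.3%) had the same call against Krt5-positive cells. Of the calls against Krt5-positive cells these are 45.6% and 60.5%. With at least 3 Krt7 UMIs required in both sets, which left 67 and 52 cells, 83 genes were called higher and 170 lower. The 2 comparisons share the Ly6c1 and Pate14 cells. Krt8 (442 against 148 CPM), Krt18 (615 against 203 CPM) and Krt19 (141 against 68.6 CPM) were higher, so a Krt7 UMI alone did not mark cells with these levels. Chchd10 was 5.09-fold higher, Fn1 2.77-fold, Hmga2 9.25-fold and Isg15 3.12-fold. The 5 largest were Enho, Arhgdig, Cdkn1c, Dkk2 and Pbx4, and Ctnnd2, Spink5, Vsnl1, Trp63 and Col17a1 were the 5 largest lower. Trp63 was 14.5-fold lower (10.7 against 155.5 CPM) and Col17a1 14.3-fold lower, with 10 basal squamous markers lower in all. Cdkn2a (973 against 373 CPM, 2.61-fold) and Ly6a (2.09-fold) were called in this comparison.

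Against Ltf-positive cells 542 of 7026 genes were called higher (7.71%) and 530 lower (7.54%), 15.3% in either direction. Simple epithelial keratins did not all differ in the same direction. Krt8 and Krt18 were higher in Ly6c1 and Pate14 cells with intervals that did not overlap, but their ratios were too small for a call. Krt8 stood at 441.5 CPM (383 to 506) against 240.2 CPM (212 to 272) in Ltf-positive cells. Krt18 stood at 615 CPM (546 to 691) against 469 CPM (429 to 512). Krt19 was 3.27-fold lower in Ly6c1 and Pate14 cells. Fn1 was 9.95-fold higher (1528 against 154 CPM), Acta2 6.09-fold higher (161 against 26.4 CPM) and Chchd10 2.15-fold higher, while Lcn2 (624 against 4079 CPM), Ly6d (45.01 against 5590 CPM) and Krt13 (0 UMIs against 96) were lower. The Acta2 level was 60.4 CPM in the 76 cells with at least 8 member neighbours and 338 CPM in the other 38. Of 17 mitosis genes 15 were higher, as were 8 of 13 DNA replication genes and Cdkn2a (2.08-fold). Most cell cycle genes were not called against Krt7-positive cells. There 2 of 19 mitosis genes were higher and 1 lower, with a median log2 ratio of 0.03. Of 13 DNA replication genes 1 was higher there, with a median of 0.36. The mitosis signal was uneven, with an upper quartile of 3.62 UMIs per 10000 in the 76 cells and 54.1 in the other 38. Of 19 cytokine and alarmin genes 1 was higher and 7 were lower here, with a median log2 ratio of -0.84, and of 17 interferon-stimulated genes 1 was higher and 1 lower, with a median of -0.25.

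The Ly6c1 and Pate14 cells were not uniform. The 76 cells with at least 8 member neighbours were compared with the other 38, a split made from the same expression values and therefore a description. Of 7271 genes 24 were called higher (0.33%) and 104 lower (1.43%). The better-grouped cells had Ly6c1 at 1366 CPM against 949 and Hmga2 at 342 against 196 CPM. They had Wfdc18 at 57.1 against 2300 CPM, Top2a at 33.6 against 314 CPM, Ly6d at 3.36 against 119 CPM, and Trp63 at 0 UMIs against 5. Wfdc18 was found in 19 of 114 cells, with up to 115 UMIs in a single cell. Ly6d was found in 5 of 114 cells, and a single cell held 16 of its 21 UMIs. Krt8 (440 against 445 CPM), Krt18 (608 against 628 CPM) and Chchd10 (144 against 136 CPM) were at similar levels in both.

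Cells with and without a Pate14 UMI differed in few genes. The 59 cells with both transcripts were compared with the 54 with Ly6c1 alone, at median depths of 3991 and 3763 UMIs. Of 6828 genes 16 were called higher (0.234%) and 28 lower (0.41%). Wfdc18 (130 against 1771 CPM), Lcn2 (225 against 1114 CPM), Ly6d (7.89 against 90.5 CPM) and Ltf (0 UMIs against 15) were lower in cells with both. Cxcl10 (237 against 90.5 CPM) and Adk, adenosine kinase (19 UMIs against 3), were higher. Few cells carried some of these counts. Over all 114 cells, Wfdc18 was found in 19, Cxcl10 in 15 and Ly6d in 5. A single cell held 16 of the 19 Ly6d UMIs in cells with Ly6c1 alone. These differences therefore describe the summed cells and not each cell.

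Levels were also read by chromosome, which was not among the planned comparisons, and chromosome 17 had the highest median log2 ratio. Of 349 chromosome 17 genes that reached 20 CPM, 311 (89.1%) had a ratio above 1 against Krt5-positive cells, compared with 55.7% over all genes. Of the 349 genes, 72 were called higher (20.6%) and 5 lower. Their median log2 ratio was 0.63, against 0.09 over all genes, and it was 0.57 against Krt7-positive cells and 0.62 against Ltf-positive cells. Leaving out the 6 MHC genes named H2 gave 0.62. Chromosome 9 (0.42), chromosome 2 (0.37) and chromosome 18 (0.37) came next against Krt5-positive cells, and chromosomes 12 (-0.35) and 7 (-0.27) lay lowest. By called genes chromosome 17 did not lead everywhere: against Ltf-positive cells 80 genes of chromosome 9 were higher (20.8%) and 55 of chromosome 17 (15.5%), and against Krt7-positive cells 11.6% of chromosome 18 genes and 9.43% of chromosome 17 genes. Crb3, Igf2r, Arhgdig, H2-M3 and Psmb8, named above, are on chromosome 17, and how far their ratios follow that of the chromosome was not tested.

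**Figure D4:**
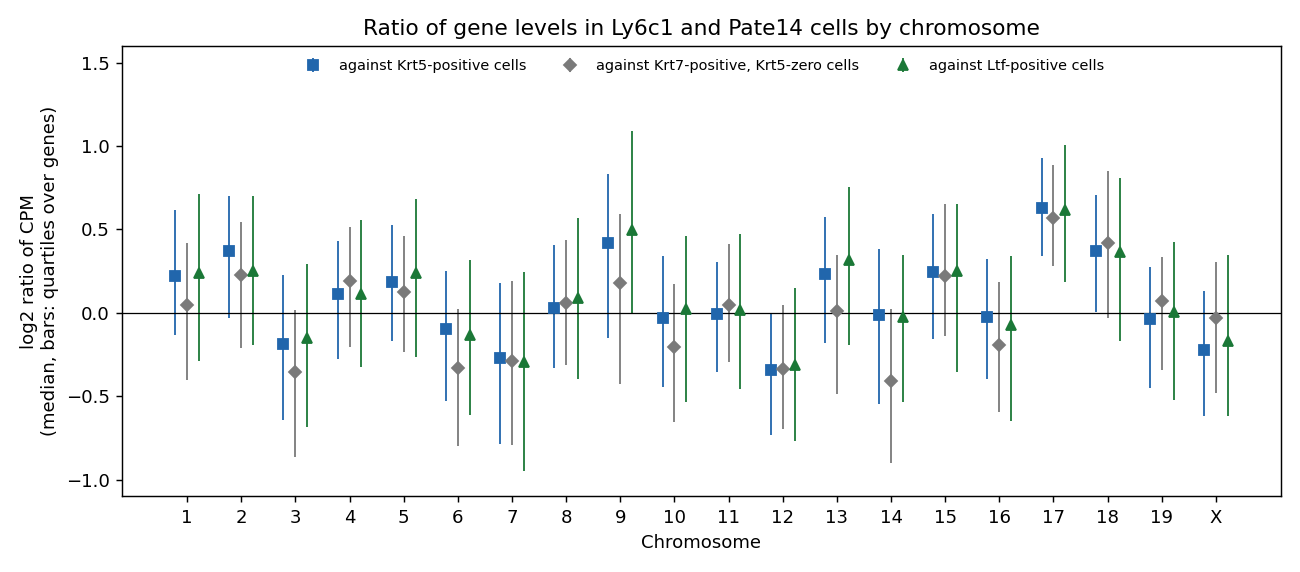
Median log2 ratio of gene levels in Ly6c1 and Pate14 cells by chromosome, against Krt5-positive (blue squares), Krt7-positive (grey diamonds) and Ltf-positive cells (green triangles). Bars span the quartiles over genes. Chromosome 17 has the highest median in all 3 comparisons, 0.63, 0.57 and 0.62.

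Chromosome 17 genes gave a median of 8.10% of the nuclear-gene UMIs of a Ly6c1 and Pate14 cell (5th to 95th percentile 6.07% to 9.61%), against 5.58% (4.14% to 7.12%) in Krt5-positive cells, 5.60% in Krt7-positive and 5.37% in Ltf-positive cells. Of the 114 cells, 93 (81.6%, 73.2% to 88.2%) lay above 7.12%, as did 6.53% of Krt7-positive and 4.32% of Ltf-positive cells. Chromosome 9 genes gave a median of 6.41% in Ly6c1 and Pate14 cells and 4.77% in Krt5-positive cells. The ranges for chromosome 17 overlap, since the lowest member was at 3.08%. The share was above 7.12% in 67 of the 76 cells with at least 8 member neighbours, in 26 of the other 38, and in 19 of the 25 non-members that had at least 8 member neighbours. In the latter 25 cells the rule did not choose the cells, although their neighbours were found with genes that include those of chromosome 17.

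**Figure D5:**
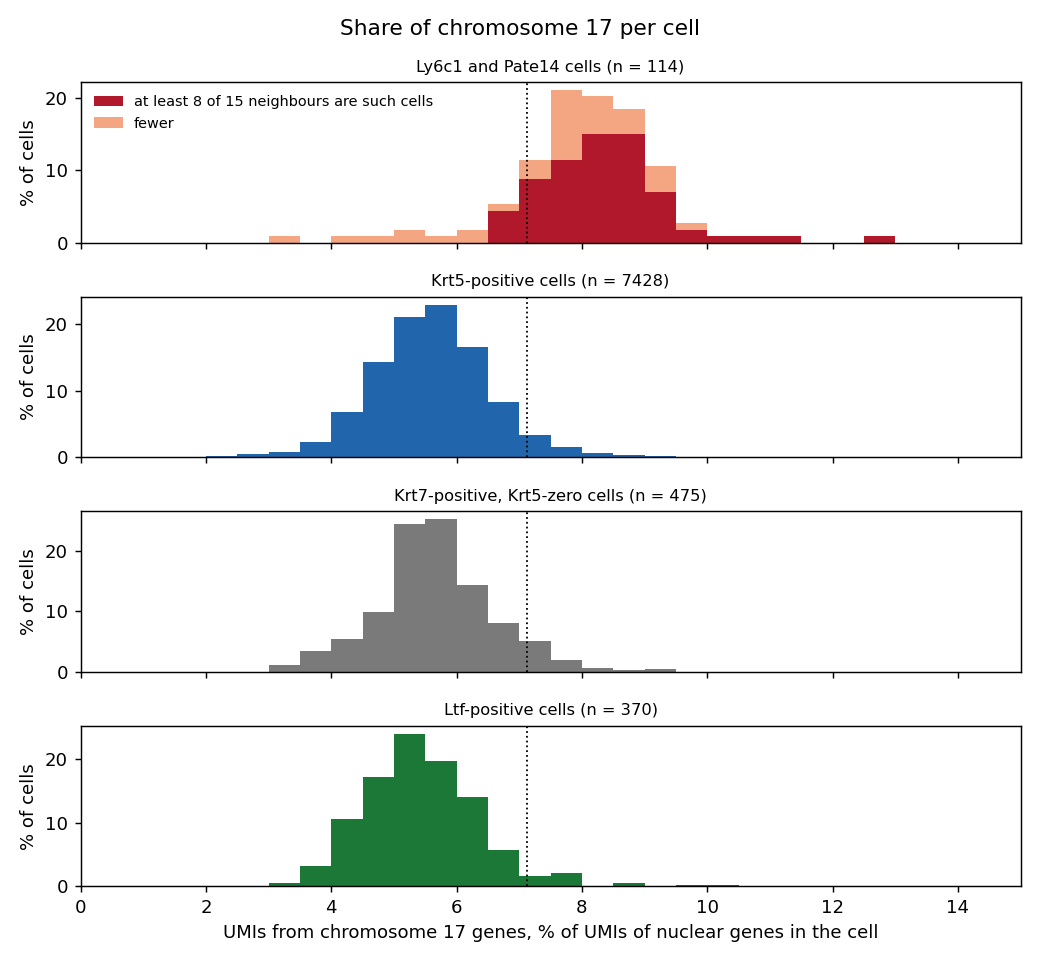
Share of nuclear-gene UMIs from chromosome 17 per cell, for the 114 Ly6c1 and Pate14 cells (split by member neighbours) and the 3 comparison sets. The vertical axis is the percentage of cells in bins of 0.5 percentage points, and the dotted line is the 95th percentile of Krt5-positive cells, 7.12%. Most Ly6c1 and Pate14 cells lie to its right and most cells of the other sets to its left.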

How the data were processed

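UMI counts per gene and cell barcode were deposited by the authors as 1 unnormalized matrix, written with CellRanger 8.0.1 per the file headers; mm10 and Scanpy 1.8.2 come from the submitters' processing notes, which give no roles. The labels list 3 libraries (gene expression with a 10x 3' kit, barcodes, scar regions), and the matrix was treated as 1 pooled sample. It held 18116 barcodes with 47720034 UMIs, of which 14925 were kept: those reaching 500 detected genes and 1000 UMIs whose mitochondrial share did not exceed 20%. No doublet caller was run and doublets were not removed.

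CPM were computed from summed counts with numpy 2.4.6 and scipy 1.17.1. A gene with 0 to 2 UMIs in a set entered calls and medians at 3 UMIs; folds printed for 1 or 2 UMIs are raw ratios. Neighbours and clusters used scikit-learn 1.9.0 and igraph 0.11.9 (Leiden, resolution 0.6).

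The members, the 28 gene lists and the comparisons were chosen with earlier results of these data known. Genes named are the rule's genes, the 12 largest calls in each direction (5 for Krt7-positive cells), up to 4 calls per list and direction, Trp53, Cdkn2a, Notch1, GFP, Scar, Ly6a and Ly6c2; others were chosen after their values were seen. Mx1 and Ddit3, on 2 of the lists, were not analysed here, and some list members are not reported here. Alternatives changed the cell filter, the rule, the scaling, the call and the depth.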

Additional observations from a re-analysis of the deposited data

How the results depend on the processing

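No paired analysis was possible because each library has 1 sample and all cells come from 1 matrix. Depth limits genes of few UMIs: 3 UMIs over the set are 6.43 CPM, and shares of cells with a UMI rise with depth. Of 104 named genes called in a direction against Krt5-positive cells, between 51 (Krt5 UMIs allowed in members) and 104 kept that call under the alternatives. The 2 splits by member neighbours were added after seeing the data. Causes of the changes were not tested.

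The number of members was 75 with at least 4 UMIs of Ly6c1 and Pate14, 59 with at least 1 of each, 67 with at least 3 Krt7 UMIs, 246 with Krt5 allowed and 38 with fewer than 8 member neighbours only. Genes called higher and lower against Krt5-positive cells were 141 and 121 with Krt5 allowed, 1010 and 739 at a fold of 1.5, 167 and 246 at a fold of 3, and 214 and 252 at 50 CPM; lower calls were 309 after thinning and 264 in members with fewer neighbours. Against Krt7-positive cells they were 83 and 170 with at least 3 Krt7 UMIs, 132 and 152 with Krt5 allowed, 561 and 754 from the mean of each cell's own CPM, and 133 and 219 at a fold of 3; higher calls were 464 at a fold of 1.5 and 178 at 50 CPM, and lower calls 223 after thinning and 217 in members with fewer neighbours. Against Ltf-positive cells they were 889 and 881 from the mean of each cell's own CPM and 329 and 347 after thinning; higher calls were 360 with Krt5 allowed, 823 at a fold of 1.5 and 271 at a fold of 3, and lower calls 290 in members with fewer neighbours. Without thinning the shares of members with a UMI were 77.2% for Krt8, 42.1% for Chchd10 and 54.4% for Isg15, which was 36.3% at 1500 UMIs and 27.4% in another random draw. The direction turned for Csf2 with at least 3 Krt7 UMIs (ratio 0.985), Aldh1a3 with Krt5 allowed (1.00) and Acta2 in members with fewer neighbours (1.01).

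The share of members among the neighbours of members was 50.4% with 15 components, 53.9% with 30 neighbours and 51.2% with 1000 variable genes.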

Other observations

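Hox genes, which mark position along the body axis, were read after their values were seen. Hoxa9 stood at 27.9 CPM (14.8 to 47.6) in Ly6c1 and Pate14 cells against 3.38 CPM in Krt5-positive cells, from 13 UMIs. Hoxc9 (12 UMIs) stood at 25.7 against 9.65 CPM and Hoxc6 (11 UMIs) at 23.6 against 9.96 CPM. Hoxa9, Hoxc9 and Hoxc6 reached 20 CPM through the Ly6c1 and Pate14 cells alone, so no count over Hox genes is read from them. No replicate culture was available to repeat the observation.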
